A study of Arabidopsis thaliana with 21 samples.

Results

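Described here are 10 Arabidopsis genes of sphingoid base phosphate and ceramide turnover. The 10 genes encode sphingoid base kinases, a phosphatase and a lyase of the phosphorylated bases, ceramide kinase, ceramide-1-phosphate transfer protein and 2 ceramidases. They were chosen by locus identifier and by their known or annotated function, and all 10 were found among the 25263 genes of the table. Transcripts were measured by RNA-seq in whole untreated seedlings of Arabidopsis thaliana, 10 days old, grown on agar medium under long days. All plants shared the Col-0 background. The tested seedlings over-expressed the full-length cDNA of AtIPCS1 (groups At1++ and At1+), AtIPCS2 (At2++ and At2+) or AtIPCS3 (At3++ and At3+), and untransformed Col-0 seedlings were the control. AtIPCS1 to AtIPCS3 are the inositol phosphorylceramide synthases, which move a head group onto ceramide. In the names of the lines ++ stands for the higher and + for the lower level of over-expression. Each line is 1 transformed line carrying the pK7WG2 construct, whose promoter is constitutive, so a line and its insertion cannot be told apart.

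In plants, sphingoid bases (long-chain bases) are either acylated to ceramide or phosphorylated by kinases. The phosphorylated base can be returned by a phosphatase or cleaved irreversibly by a lyase, which takes it out of the sphingolipid pool. Ceramide is cut back to the free base by ceramidases and is phosphorylated by ceramide kinase. In Arabidopsis, loss of ceramide kinase or of the transfer protein that carries its product leads to spontaneous cell death, and sphingoid base phosphates take part in abscisic acid signalling in guard cells.

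The libraries held 12733113 to 17210244 reads on genes. Replicates 1 and 2 labelled At3+ held identical values and were counted as 1 sample, so that n = 2 for At3+ and n = 3 for every other group. The study describes the replicates of a line in places as technical, so p-values measure only the spread between these samples. AtIPCS1 averaged 45370 normalized counts in At1++, 17726 in At1+ and 172 in Col-0. AtIPCS2 averaged 12631 in the libraries labelled At2++, 22612 in those labelled At2+ and 823 in Col-0, and AtIPCS3 averaged 5802 in the libraries labelled At3++, 11933 in those labelled At3+ and 57.7 in Col-0. For AtIPCS2 and AtIPCS3 the order of the transcript thus goes against the labels ++ and +, although the AtIPCS3 difference did not pass (limma, adjusted p = 0.0987). The AtIPCS3 libraries did not overlap, at 6083, 5445 and 5877 for label At3++ and 12859 and 11006 for label At3+. The standard error of 0.44 is pooled over all 7 groups, which include the outlying At1++ library described below. The study lists numbers of expressed genes by library, and its entries for both AtIPCS2 lines and both AtIPCS3 lines stand under the opposite label from the deposited columns with nearly the same numbers. The ++ and + labels of these lines may thus be exchanged in the deposited table. By quantitative PCR the study found both transcripts higher in ++ than in +, against the deposited order. Its RNA-seq fold changes are mixed. The seed genes CRA1, CRU3, OLEO1 and SESA1 rise more in At3++ than in At3+, as deposited. SPHK2 is listed as lower only in At2++, the lowest line here (-1.20, against -0.75 in At2+, on the log2 scale). In the AtIPCS2 lines CRA1 keeps the deposited order, while CRU3, OLEO1 and SESA1 reverse it. An exchange of labels was thus not settled. Groups are named here by the deposited labels, and if the labels are exchanged, a value given for ++ belongs to + in the AtIPCS2 and AtIPCS3 lines and the other way round. Replicate 1 of At1++ stood apart for AtIPCS3, with 318 normalized counts against 47.6 and 44.7 in the other two, and leaving it out changed no call of a member in the 9 comparisons.

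The organ marker lists moved between the groups as well. The summed level of the 4 shoot markers was 301615 to 360821 normalized counts in At1++, 189906 to 214048 in At1+, 404015 to 482046 in the libraries labelled At2++, 397855 to 444084 in At2+, 290682 to 324089 in At3++, 230255 to 238867 in At3+ and 191496 to 203610 in Col-0. The 4 root markers summed to 30782 to 32254 in At1++, 24503 to 28037 in At1+, 36903 to 40273 in At2++, 38571 to 38894 in At2+, 43969 to 45926 in At3++, 26403 to 28539 in At3+ and 21527 to 21798 in Col-0. The 4 seed markers summed to 22343 to 24703 in At1++, 1308 to 2172 in At1+, 2147 to 2259 in At2++, 4504 to 5533 in At2+, 9125 to 11607 in At3++, 384 to 686 in At3+ and 1.87 to 6.15 in Col-0, where CRU3, OLEO1 and SESA1, like the root marker NRT2.1, were each at 0 in at least 1 library. Against Col-0, 3 of the 4 shoot markers passed as higher in At1++, At2++, At2+ and At3++, 1 did in At3+ and none did in At1+, and LHCB1.1 passed as lower in At1++, At2++ and At3++. Of the root markers, 3 of 4 passed as higher in At1++, At2++, At2+ and At3++ and 1 of 4 in At1+ and At3+, and all 4 seed markers passed as higher in every line. The 4 lines in which most members passed as lower were also the 4 with the highest shoot and root sums, although the root sum was highest in At3++. The shoot sum was mostly RBCS1A, which held 123472 to 347180 normalized counts over all libraries. The root sum was almost wholly PYK10, which held 21478 to 45828 normalized counts over all libraries. COBL9, PLT1 and NRT2.1 reached at most 107, 23.1 and 54.2, and PLT1 passed in no line against Col-0. The part of organ makeup and of seed-type transcripts in the results on the members was not tested, and in such bulk samples fewer cells of a type and less RNA per cell cannot be told apart.

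**Figure D1:**
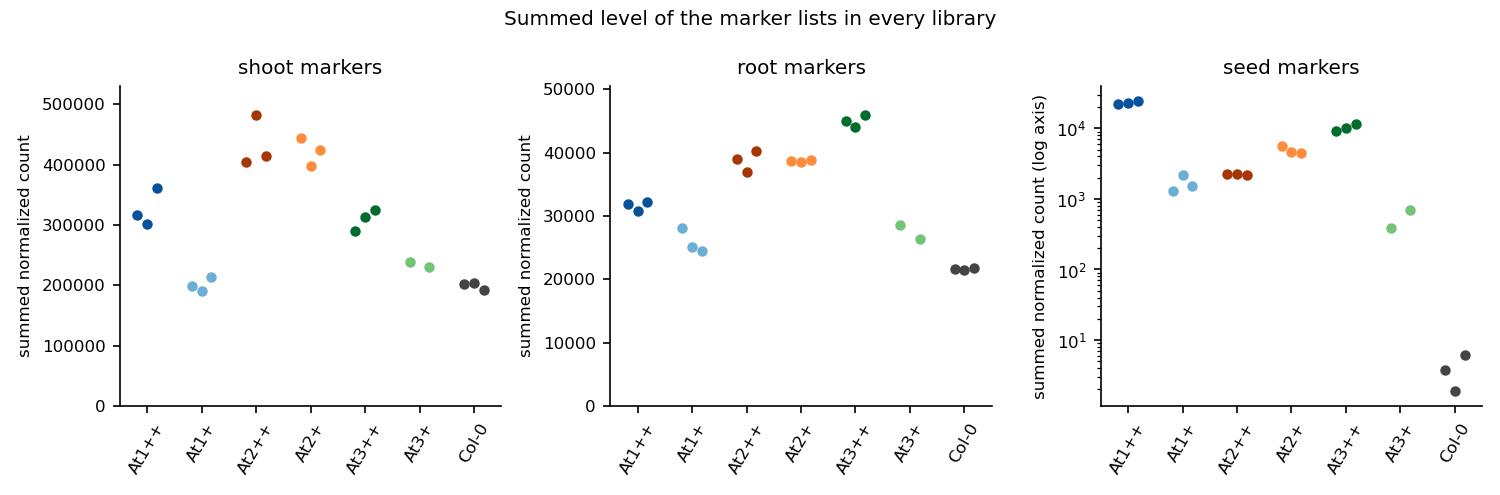
Summed normalized count of the 4 shoot, 4 root and 4 seed markers (y axes, the seed axis logarithmic) in each library (points) of the 7 groups (x axis). Shoot markers are at 397855 to 482046 in the AtIPCS2 lines, against 191496 to 203610 in Col-0, and seed markers are between 384 and 24703 in the lines, against at most 6.15 in Col-0.

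SPHK2 and SPP1 had the widest ranges of the 10 genes, and LCBK2 followed an order of its own, so the 250 bases before the annotated starts of these genes are shown. They are from RefSeq (TAIR10.1), on the strand of the gene, with matches to the searched motifs in capitals.
SPHK2, chr4:11455876-11456125, plus strand: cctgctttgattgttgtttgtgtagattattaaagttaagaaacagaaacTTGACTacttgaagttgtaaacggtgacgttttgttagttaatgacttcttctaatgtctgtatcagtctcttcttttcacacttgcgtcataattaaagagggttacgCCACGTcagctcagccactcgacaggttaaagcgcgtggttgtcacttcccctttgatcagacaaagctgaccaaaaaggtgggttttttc
SPP1, chr3:21632562-21632811, plus strand: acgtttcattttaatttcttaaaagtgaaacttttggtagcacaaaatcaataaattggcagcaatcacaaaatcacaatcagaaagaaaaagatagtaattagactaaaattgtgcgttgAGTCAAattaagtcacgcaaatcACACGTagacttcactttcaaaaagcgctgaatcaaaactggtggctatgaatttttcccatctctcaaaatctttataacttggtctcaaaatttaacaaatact
LCBK2, chr2:18950552-18950801, plus strand: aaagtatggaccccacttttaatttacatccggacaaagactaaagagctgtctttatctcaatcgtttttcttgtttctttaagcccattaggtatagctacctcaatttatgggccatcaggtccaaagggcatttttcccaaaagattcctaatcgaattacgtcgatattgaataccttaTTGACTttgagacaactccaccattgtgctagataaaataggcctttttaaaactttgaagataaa
The motifs searched on both strands were the W-box (TTGACC or TTGACT, bound by WRKY factors), the G-box (CACGTG), the evening element (AAAATATCT) and ABRE-like letters (ACGTGG or ACGTGT, which can overlap a G-box). In windows of 250 bases before and 50 after the start, a W-box was found for 5 of the 10 members (SPHK2, LCBK2, SPP1, ACD5 and NCER1), against 32.4% of 27443 such windows in the genome. ABRE-like letters were found for 2 members (SPHK2 and SPP1), against 18.9% of windows. The evening element was found for LCBK1 alone (2.82% of windows), and the G-box for no member (7.68% of windows). NCER1, which passed in no comparison, held a W-box, and DPL1, which moved with SPHK2, held none of the searched motifs. Of the SPHK2 stretch, 132 bases lie within a neighbouring annotated gene. A match is a description of the letters and not a binding site.

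On a scale of normalized counts per kb of annotated exon, which allows levels to be compared between genes, ACD11 was the most abundant member in Col-0, at 774 ± 56.6 (SD, n = 3). AT4G22330 followed at 702 ± 55.4, and the libraries of these genes overlapped. SPP1 stood at 517 ± 25.1 and LCBK1 at 470 ± 27.7, without overlap. SPHK1 (244 ± 14.9), LCBK2 (224 ± 17.8) and DPL1 (208 ± 8.26) formed a middle tier in which neighbours overlapped. SPHK2 (185 ± 3.17) and ACD5 (182 ± 3.33) overlapped each other, and NCER1 was lowest at 69.9 ± 1.20. The members rested on 139 to 2460 reads per library, and all 10 passed the filter of a mean normalized count of at least 1. No stretch of 50 bases of their spliced exons, the minimum length of a trimmed read, matched the genome at more than 1 place. None was shared with another member. Stretches across a splice junction were not compared with the spliced exons of genes beyond the members.

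**Figure D2:**
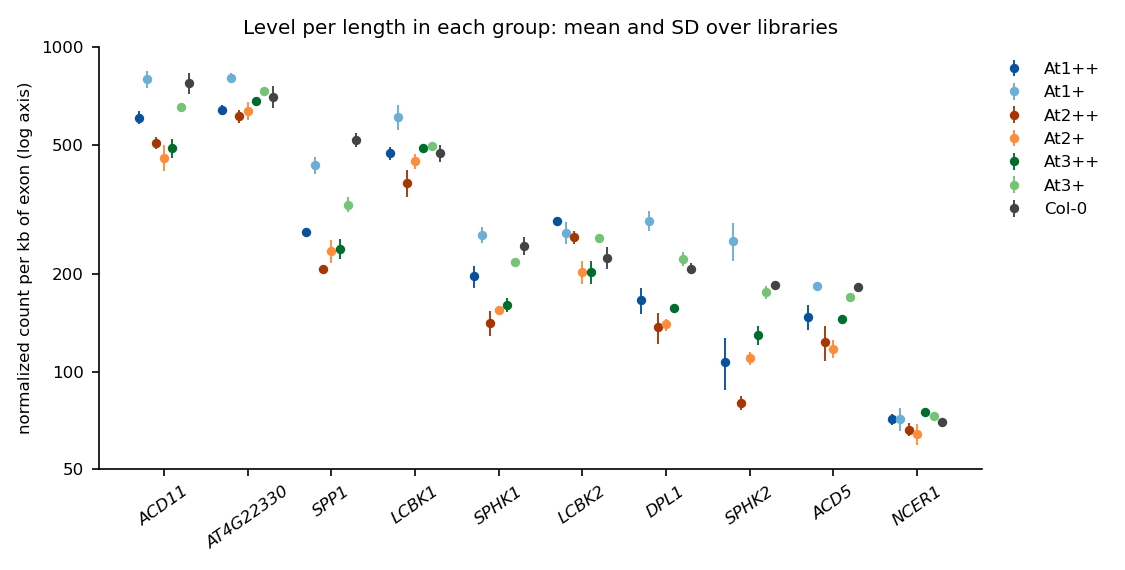
Mean normalized count per kb of exon (y axis, logarithmic) of the 10 genes (x axis, in their Col-0 order) in the 7 groups, with bars for the SD over libraries. ACD11 and AT4G22330 lead in Col-0 at 774 and 702, NCER1 is lowest at 69.9, and the groups lie widest apart for SPHK2 and SPP1.

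Against Col-0, most members passed as lower in 4 of the 6 lines. In At1+ the passing members were higher, except SPP1, which was lower. In At3+ (n = 2) only SPP1 passed, as lower. The At3+ libraries of SPHK1, SPHK2, ACD5 and ACD11 also lay below all those of Col-0. A gene passed where limma's Benjamini-Hochberg adjusted p over all 22222 tested genes was under 0.05, and fold changes are differences of log2(normalized count + 1). The lines share the Col-0 libraries, so the comparisons are not independent of each other. In At1++, 1 member passed as higher and 6 as lower, where 19.8% of all genes passed as higher and 19% as lower. In At1+, 5 passed as higher and 1 as lower, against 14.4% and 13.2% of all genes. In the libraries labelled At2++, 1 passed as higher and 8 as lower, against 25.8% and 26.2% of all genes, and in those labelled At2+ none as higher and 6 as lower, against 22.6% and 21.5%. In the libraries labelled At3++, none passed as higher and 6 as lower, against 20.4% and 18.1%. In those labelled At3+, none passed as higher and 1 as lower, against 4.94% and 4.37%. The median log2 fold change of the 10 members was -0.31 in At1++ and 0.16 in At1+, -0.59 in the libraries labelled At2++ and -0.60 in those labelled At2+, and -0.36 and -0.01 for labels At3++ and At3+, while the median over all tested genes lay between -0.01 and 0.01 in every line except At2++, where it was -0.02.

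Falls of at least 2-fold were fewer. They covered SPHK2 and SPP1 in the libraries labelled At2++ (4.91% of all genes), and SPP1 alone in those labelled At2+ (2.69%) and At3++ (2.31%). Scaling each library to the same total of nuclear reads gave a median over all genes of -0.10 for both AtIPCS1 lines, of -0.23 for label At2++ and -0.21 for At2+, and of -0.16 for label At3++ and -0.03 for At3+. The share of passing genes that were higher then became 35.8% in At1++ (51% as deposited), 31.5% in At1+ (52.3%), 27.9% in At2++ (49.6%), 25.6% in At2+ (51.2%) and 29.5% in At3++ (53%), but stayed within 10 points in At3+ (44.8%, against 53.1%).

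**Figure D3:**
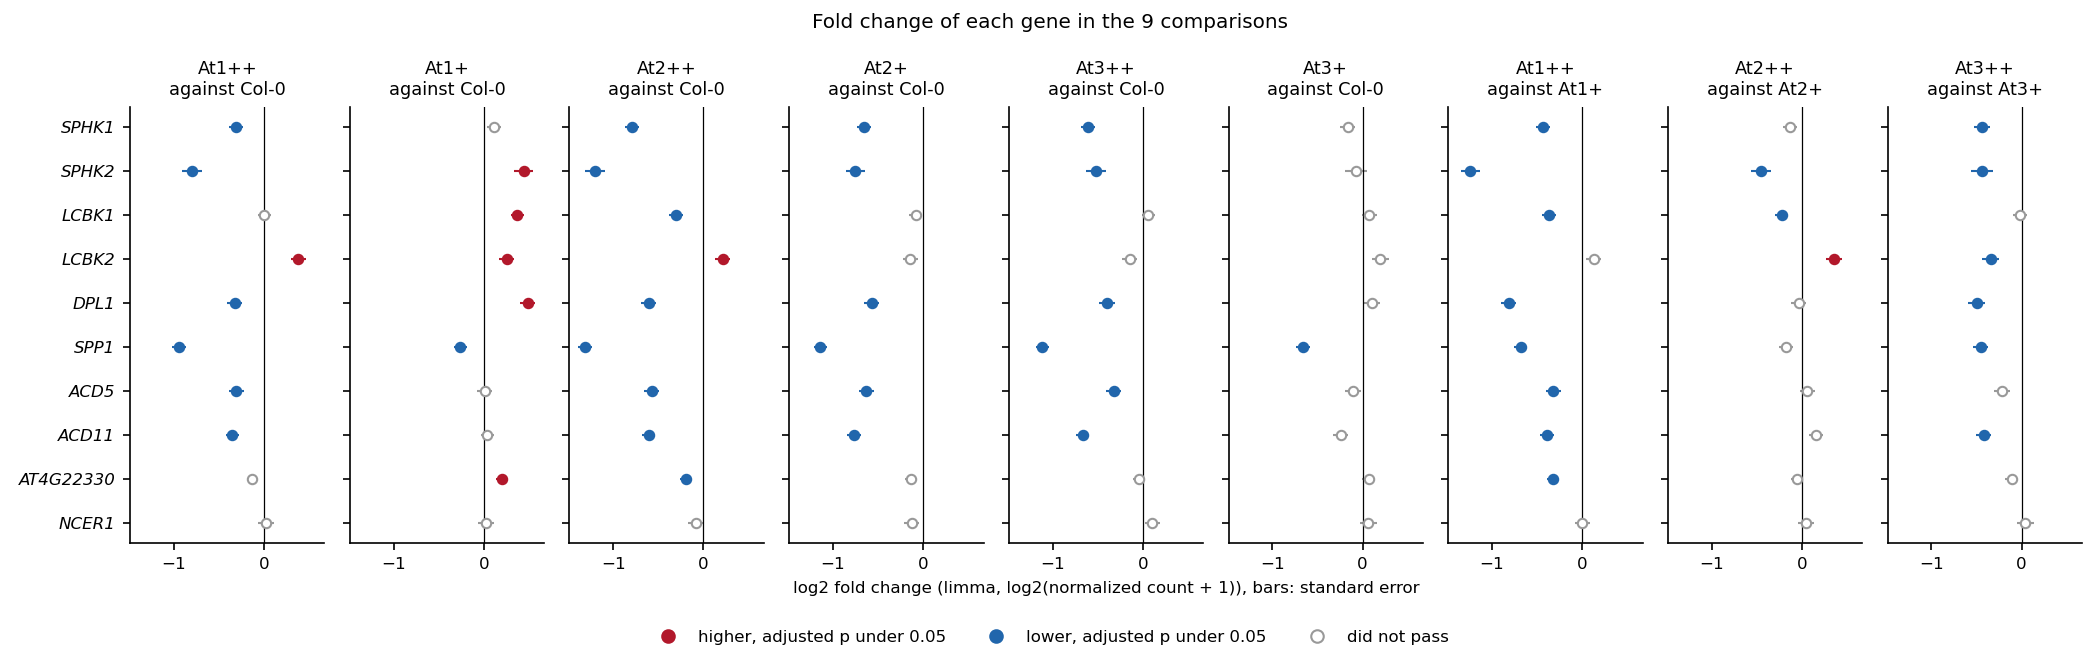
Log2 fold change (x axis, limma on log2(normalized count + 1), bars for the standard error) of the 10 genes (y axis) in 9 comparisons (panels). Filled red points passed as higher, filled blue points as lower, and open points did not pass. SPP1 is lower in all 6 lines, between -1.31 in At2++ and -0.26 in At1+, while NCER1 stays within 0.13 of 0.

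Of the 4 sphingoid base kinases, SPHK2 (AT4G21534, TAIR10.1 chr4:11456126-11459223, plus strand) varied most. SPHK2 held 238, 198 and 165 normalized counts in At1++, 519, 498 and 401 in At1+, 146, 145 and 158 in the libraries labelled At2++, 215, 198 and 201 in those labelled At2+, 231, 260 and 232 in those labelled At3++, 317 and 338 in those labelled At3+, and 349, 338 and 349 in Col-0. Every At1+ library lay above all Col-0 libraries, and every At1++, At2++, At2+ and At3++ library lay below them. The At3+ libraries lay below them too, but only narrowly, with 338 in the nearest library of each group. The log2 fold change against Col-0 was -0.80 in At1++ (limma, adjusted p = 1.66e-06), 0.44 in At1+ (adjusted p = 0.00301), -1.20 in At2++ (adjusted p = 1.2e-09), -0.75 in At2+ (adjusted p = 3.81e-06) and -0.52 in At3++ (adjusted p = 0.000474), each with a standard error of 0.11. In At3+ it was -0.08 and did not pass (adjusted p = 0.802). SPHK2 encodes a sphingosine kinase, and its range from the highest to the lowest group mean (At1+ over At2++) was 3.16-fold.

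SPHK1 (AT4G21540, chr4:11459228-11462651, plus strand) encodes the sphingosine kinase next door, and its annotated start lies 4 bases after the end of SPHK2. It held 456, 393 and 410 normalized counts in At1++, 573, 591 and 530 in At1+, 333, 283 and 290 in At2++, 331, 337 and 324 in At2+, 324, 358 and 345 in At3++, 467 and 462 in At3+, and 553, 490 and 522 in Col-0. The At1+ libraries overlapped those of Col-0, and all others lay below them. It passed as lower in At1++ (log2 fold change -0.32, limma adjusted p = 0.00218), At2++ (-0.79, adjusted p = 6.43e-09), At2+ (-0.65, adjusted p = 2.18e-07) and At3++ (-0.61, adjusted p = 1e-06), but not in At1+ (0.11) or At3+ (-0.17).

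LCBK1 (AT5G23450, chr5:7904293-7909623, minus strand), a long-chain base kinase, was the kinase with the highest level per length. LCBK1 held 1778, 1648 and 1631 normalized counts in At1++, 2393, 2018 and 2133 in At1+, 1420, 1214 and 1465 in the libraries labelled At2++, and 1570, 1752 and 1728 in Col-0. It was above all Col-0 libraries in At1+ (log2 fold change 0.37, standard error 0.07, limma adjusted p = 0.000383) and below them in At2++ (-0.30, adjusted p = 0.00114). In the other lines its fold change lay between -0.08 and 0.08 and did not pass, but with nuclear totals it passed as lower in At2+ (-0.29, adjusted p = 0.00391).

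LCBK2 (AT2G46090, chr2:18950802-18953275, plus strand), annotated as a putative sphingosine kinase, did not follow the other kinases. LCBK2 held 411, 418 and 403 normalized counts in At1++, 380, 345 and 405 in At1+, 366, 381 and 348 in At2++, 309, 262 and 287 in At2+, 279, 311 and 266 in At3++, 354 and 369 in At3+, and 327, 287 and 333 in Col-0. The libraries of At1++, At1+, At2++ and At3+ lay above those of Col-0, while At2+ and At3++ overlapped them. It passed as higher in At1++ (log2 fold change 0.38, limma adjusted p = 0.000749), At1+ (0.25, adjusted p = 0.0258) and At2++ (0.21, adjusted p = 0.0383), and in no line as lower. The At1+ call was lost without Col-0 replicate 2 (log2 fold change 0.19), At1+ replicate 1 (0.25) or At1+ replicate 3 (0.20). The At2++ call was lost without Col-0 replicate 2 (0.14), At2++ replicate 1 (0.21) or At2++ replicate 2 (0.18), as well as with DESeq2 on the recovered reads (adjusted p = 0.0641), and with nuclear totals its value was -0.0065. It was also lost with only the libraries compared (limma adjusted p = 0.0703). With nuclear totals the At1+ call was lost too (0.16, adjusted p = 0.171), and LCBK2 passed as lower in At2+ (-0.35, adjusted p = 0.00124) and At3++ (-0.30, adjusted p = 0.00678).

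**Figure D4:**
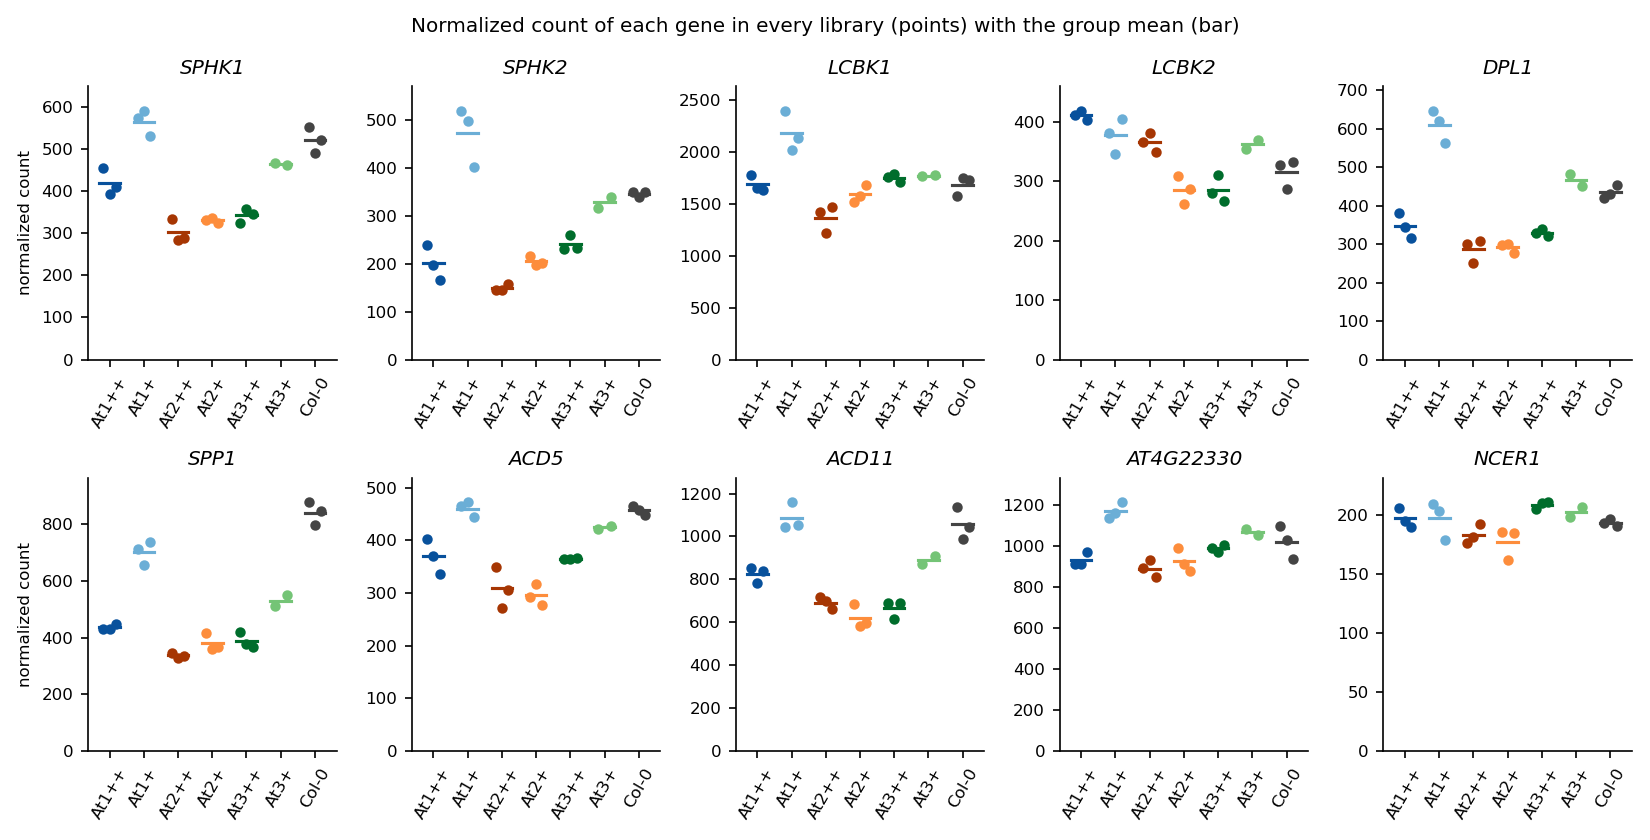
Normalized count (y axes, from 0) of each of the 10 genes (panels) in every library (points) of the 7 groups (x axis), with bars for the group means. SPHK1, SPHK2, DPL1, SPP1, ACD5 and ACD11 lie below Col-0 in At1++, At2++, At2+ and At3++. All of these except DPL1 also lie below it in At3+, and SPP1 does in At1+. LCBK2 has its highest mean in At1++ (411), and NCER1 has group means between 178 and 209.

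Both enzymes that remove sphingoid base phosphates were lower in the same 4 lines, and they parted in At1+ and At3+. DPL1 (AT1G27980, chr1:9748506-9752769, plus strand) encodes the lyase. It held 380, 345 and 316 normalized counts in At1++, 646, 621 and 562 in At1+, 300, 250 and 308 in At2++, 297, 301 and 278 in At2+, 328, 339 and 320 in At3++, 482 and 450 in At3+, and 419, 431 and 453 in Col-0. The At1+ libraries lay above Col-0, those of At1++, both AtIPCS2 lines and At3++ below it, and At3+ overlapped it. The log2 fold change was -0.33 in At1++ (limma adjusted p = 0.0033), 0.49 in At1+ (adjusted p = 0.000102), -0.61 in At2++ (adjusted p = 1.73e-06), -0.57 in At2+ (adjusted p = 6.03e-06) and -0.40 in At3++ (adjusted p = 0.000578), with a standard error of 0.09 each, and it was 0.10 in At3+ (adjusted p = 0.621). Its exons overlap a gene on the opposite strand over 28 bases.

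SPP1 (AT3G58490, chr3:21632812-21635178, plus strand), the long-chain base phosphate phosphatase, was the member that passed in every line. SPP1 held 430, 432 and 447 normalized counts in At1++, 711, 656 and 737 in At1+, 347, 329 and 335 in the libraries labelled At2++, 418, 360 and 366 in those labelled At2+, 419, 378 and 367 in those labelled At3++, 511 and 551 in those labelled At3+, and 877, 796 and 846 in Col-0. No library of any line reached the lowest Col-0 library. The log2 fold change was -0.94 in At1++ (standard error 0.07, limma adjusted p = 1.49e-10), -0.26 in At1+ (adjusted p = 0.00926), -1.31 in At2++ (adjusted p = 1.94e-13), -1.14 in At2+ (adjusted p = 5.05e-12), -1.11 in At3++ (adjusted p = 1.04e-11) and -0.66 in At3+ (adjusted p = 4.78e-06). Without At1+ replicate 2 the At1+ call was lost (log2 fold change -0.21, adjusted p = 0.0575). Of its exons, 17 bases overlap a gene on the opposite strand, and the strand setting of the counting is not given in the sources used here.

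ACD5 and ACD11, named for the accelerated cell death of their mutants, were lower in the same 4 lines and passed in neither At1+ nor At3+, although their At3+ libraries lay below all those of Col-0. ACD5 (AT5G51290, chr5:20843923-20848376, minus strand), the ceramide kinase, held 403, 370 and 336 normalized counts in At1++, 464, 472 and 444 in At1+, 349, 272 and 305 in At2++, 292, 316 and 278 in At2+, 365, 365 and 366 in At3++, 422 and 428 in At3+, and 465, 457 and 449 in Col-0. Only the At1+ libraries overlapped those of Col-0. Its log2 fold change was -0.31 in At1++ (limma adjusted p = 0.00441), 0.01 in At1+, -0.57 in At2++ (adjusted p = 3.02e-06), -0.63 in At2+ (adjusted p = 1.1e-06), -0.32 in At3++ (adjusted p = 0.00335) and -0.11 in At3+. Of its exons, 70 bases overlap a gene on the opposite strand.

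ACD11 (AT2G34690, chr2:14629986-14632082, plus strand), which transfers ceramide-1-phosphate between membranes, held 855, 783 and 840 normalized counts in At1++, 1043, 1159 and 1052 in At1+, 716, 697 and 660 in At2++, 687, 581 and 596 in At2+, 689, 615 and 690 in At3++, 873 and 908 in At3+, and 1138, 986 and 1042 in Col-0. As for ACD5, the At1+ libraries alone overlapped those of Col-0. Its log2 fold change was -0.35 in At1++ (limma adjusted p = 0.000446), 0.04 in At1+, -0.61 in At2++ (adjusted p = 1.94e-07), -0.77 in At2+ (adjusted p = 6.96e-09), -0.67 in At3++ (adjusted p = 1.03e-07) and -0.24 in At3+ (adjusted p = 0.0671). The At3+ value passed with edgeR (adjusted p = 0.0458) and DESeq2 (adjusted p = 0.0491) on the recovered reads.

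The ceramidases, which release the free base from ceramide, moved least. AT4G22330 (chr4:11797548-11799946, plus strand), an alkaline ceramidase gene that RefSeq names ATCES1, held 914, 912 and 973 normalized counts in At1++, 1139, 1161 and 1214 in At1+, 892, 933 and 848 in At2++, 993, 911 and 878 in At2+, 993, 970 and 1008 in At3++, 1083 and 1053 in At3+, and 1099, 1030 and 938 in Col-0. The At1+ libraries lay above those of Col-0, those of At2++ lay below, and the other lines overlapped Col-0. It passed as higher in At1+ (log2 fold change 0.20, standard error 0.07, limma adjusted p = 0.0239) and as lower in At2++ (-0.20, adjusted p = 0.0138). The At1+ call was lost without Col-0 replicate 3 (log2 fold change 0.14), without At1+ replicate 3 (0.17) and with nuclear totals (0.10), and the At2++ call without Col-0 replicate 1 (-0.14) or At2++ replicate 3 (-0.16). The At2++ call was also lost with only the libraries compared (limma adjusted p = 0.0575). Without Col-0 replicate 3 AT4G22330 also passed as lower in At1++ (-0.19) and At2+ (-0.20), and without At2+ replicate 1 in At2+ (-0.19). With nuclear totals it passed as lower in At1++ (-0.23, adjusted p = 0.00526), At2+ (-0.35, adjusted p = 5.59e-05) and At3++ (-0.19, adjusted p = 0.014). Of its exons, 95 bases overlap a gene on the opposite strand.

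NCER1 (AT1G07380, chr1:2264634-2269121, minus strand), a neutral ceramidase, held 206, 195 and 190 normalized counts in At1++, 209, 204 and 179 in At1+, 176, 181 and 193 in At2++, 186, 162 and 185 in At2+, 205, 210 and 211 in At3++, 199 and 207 in At3+, and 194, 197 and 191 in Col-0. The libraries of At1++, At1+ and At2++ overlapped those of Col-0, At2+ lay below them, and At3++ and At3+ lay above. Its log2 fold change lay between -0.13 in At2+ and 0.11 in At3++, with a standard error of 0.09 (0.10 for At3+), and passed in no comparison. With nuclear totals it passed as lower in At2++ (-0.30, adjusted p = 0.00767) and At2+ (-0.34, adjusted p = 0.00333).

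The lines of an isoform were then compared by label. In At1++ against At1+, where the AtIPCS1 transcript follows the labels, no member passed as higher and 8 passed as lower, against 24.7% and 24.2% of all genes. SPHK2 fell by at least 2-fold, as did 5.44% of all genes, with a log2 fold change of -1.24 (standard error 0.11, limma adjusted p = 7.61e-10) and no overlap between the libraries of the lines. DPL1 (-0.81, adjusted p = 1.74e-08), SPP1 (-0.68, adjusted p = 2.96e-08), SPHK1 (-0.43), ACD11 (-0.39), LCBK1 (-0.37), AT4G22330 (-0.33) and ACD5 (-0.32) also passed, while LCBK2 (0.13) and NCER1 (0.00) did not. In this comparison the markers of shoot (3 of 4 higher, 1 lower), root (3 of 4 higher) and seed (4 of 4 higher) differed too, and their part was not tested.

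In the libraries labelled At2++ against those labelled At2+, 1 member passed as higher and 2 as lower, against 9.93% and 10.5% of all genes. LCBK2 was higher (log2 fold change 0.36, standard error 0.08, limma adjusted p = 0.00367), and SPHK2 (-0.45, adjusted p = 0.00389) and LCBK1 (-0.22, adjusted p = 0.0325) were lower. ACD11 passed as higher without At2+ replicate 1 (0.23, against 0.16). The LCBK1 call was lost without At2++ replicate 2 (-0.14), At2+ replicate 2 (-0.23) or At2+ replicate 3 (-0.18). It was also lost with only the libraries compared (limma adjusted p = 0.139). In the libraries labelled At3++ against those labelled At3+, no member passed as higher and 6 as lower, against 13% and 9% of all genes. They were DPL1 (-0.50, adjusted p = 0.000368), SPP1 (-0.45, adjusted p = 0.000214), SPHK2 (-0.44, adjusted p = 0.00941), SPHK1 (-0.44, adjusted p = 0.000579), ACD11 (-0.42, adjusted p = 0.000509) and LCBK2 (-0.34, adjusted p = 0.00948). Without At3+ replicate 3 the calls of SPHK2 (-0.40, adjusted p = 0.116) and LCBK2 (-0.31, adjusted p = 0.107) were lost. With nuclear totals ACD5 (-0.34) and AT4G22330 (-0.23) passed as lower as well. Since the AtIPCS2 and AtIPCS3 transcripts run against the labels, a direction given here is by label and not by transcript level.

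The difference between isoforms in this change from + to ++ was tested as a contrast. Between AtIPCS1 and AtIPCS2, no member passed as higher and 7 as lower, against 13.7% and 14.3% of all genes, led by SPHK2 (-0.79) and DPL1 (-0.78). Between AtIPCS1 and AtIPCS3, 1 member passed as higher (LCBK2, 0.47) and 2 as lower (SPHK2, -0.80, and LCBK1, -0.35), against 12.4% and 15.5% of all genes. Between AtIPCS2 and AtIPCS3, 3 members passed as higher (LCBK2, 0.70, ACD11, 0.58, and DPL1, 0.46) and none as lower, against 9.14% and 12.2% of all genes. NCER1 passed in none of the contrasts. With nuclear totals the calls of SPHK1 (-0.29) and ACD5 (-0.37) between AtIPCS1 and AtIPCS2 and of LCBK1 (-0.23) between AtIPCS1 and AtIPCS3 were lost, and SPHK1 (0.42) and SPP1 (0.39) passed between AtIPCS2 and AtIPCS3.

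The share of SPHK2 among the reads of the SPHK pair measures whether these neighbours moved unequally. Only At1+, At1++ and At2++ lay apart from Col-0 in it, and no adjusted p was under 0.05. Their coding sequences were 82.9% identical over 1434 aligned bases (RefSeq, TAIR10.1). SPHK2 made up 32.2% ± 3.03 of SPHK1 plus SPHK2 reads in At1++ and 45.4% ± 2.25 in At1+ (SD, n = 3 unless given). The share was 33.2% ± 2.52 in the libraries labelled At2++ and 38.3% ± 1.21 in those labelled At2+, 41.3% ± 0.94 and 41.4% ± 1.28 (n = 2) for labels At3++ and At3+, and 39.9% ± 1.12 in Col-0. The libraries of At1+ (43.0% to 47.5%) lay above those of Col-0 (38.6% to 40.9%), and those of At1++ (28.7% to 34.3%) and At2++ (30.4% to 35.3%) lay below them. By a two-sided exact permutation test p was 0.1 for each of these lines, the smallest that 3 libraries against 3 allow, and 0.2 when adjusted over the 6 lines. The difference was -13.2 points for At1++ minus At1+ (exact permutation p = 0.1, adjusted over 3 comparisons 0.15), -5.07 points for At2++ minus At2+ (exact p = 0.1, adjusted 0.15) and -0.05 points for At3++ minus At3+ (exact p = 0.8). The 95% Wilson interval of a library, which covers counting error only, spanned 5.83 to 9.24 points.

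**Figure D5:**
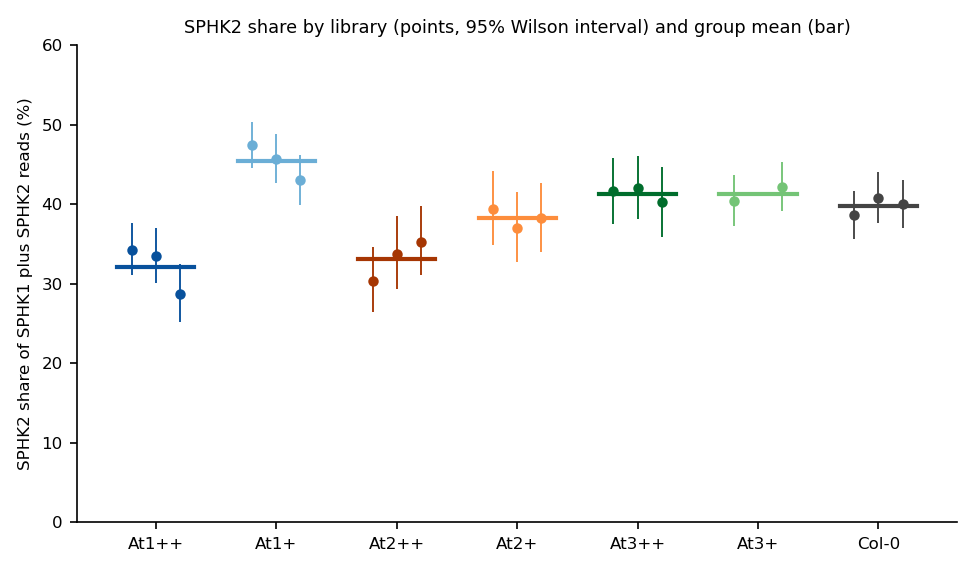
Share of SPHK2 in the reads of SPHK1 plus SPHK2 (y axis, percent, from 0) in each library (points with 95% Wilson intervals) of the 7 groups (x axis), with bars for the group means. At1+ lies highest at 45.4%, At1++ and At2++ lie lowest at 32.2% and 33.2%, and Col-0 stands at 39.9%.

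As a description, the correlation of log2 values over the 20 libraries, which share group and library effects, ranged from 0.04 to 0.94 over the 45 pairs of members, with a median of 0.72. The pair SPHK2 and DPL1 had the highest value and the pair SPHK2 and LCBK2 the lowest. For the 3 members whose group means spanned at least 1 on the log2 scale, the most similar of all tested genes were listed. For SPHK2 they were AT4G33150 (Pearson r = 0.97), WRKY26, a WRKY transcription factor (0.97), and AT4G37520 (0.97). For DPL1 they were CKL2, a casein kinase 1-like gene (0.98), CTR1, the kinase that represses ethylene signalling (0.97), and GTE8, a bromodomain gene (0.97). SPP1 was most like AT4G36210 (0.98), PIF4, a light and temperature-regulated transcription factor gene (0.97), and TLP2, a tubby-like gene (0.96).

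Genes with neighbouring roles were counted in the same way. Of 8 further genes of sphingolipid and ceramide hydrolysis (NCER2, NCER3, TOD1, 4 genes of the glucosylceramidase family and NPC4), 2 passed as higher and 1 as lower in At1++, 1 and 3 in At1+, 4 and 2 in At2++, 2 and 1 in At2+, 3 and 1 in At3++, and none in At3+, with medians of 0.06, -0.23, 0.43, 0.24, 0.27 and 0.13. Over all genes the shares passing as higher and as lower were 19.8% and 19% for At1++, 14.4% and 13.2% for At1+, 25.8% and 26.2% for label At2++, 22.6% and 21.5% for label At2+, and 20.4% and 18.1% for label At3++, so that several of these counts lie near the background. NPC4, a phospholipase C that also hydrolyses glycosyl inositol phosphorylceramide, held 35.4, 15.6 and 28.2 normalized counts in At1++, 7.78, 6.62 and 9.68 in At1+, 52.8, 34.4 and 44.2 in At2++, 20.5, 23.2 and 14.4 in At2+, 25.5, 27.2 and 37.2 in At3++, 15.1 and 12.0 in At3+, and 7.42, 4.67 and 7.90 in Col-0. It was a gene of low counts that lay above Col-0 in every line except At1+, and it passed in At1++ (log2 fold change 1.79, limma adjusted p = 2.03e-05), At2++ (2.55, adjusted p = 6.48e-08), At2+ (1.41, adjusted p = 0.000308) and At3++ (2.02, adjusted p = 4.69e-06). NPC4 also passed as higher in each line labelled ++ against its + line (1.54, 1.14 and 1.08 for AtIPCS1, AtIPCS2 and AtIPCS3). Of all genes, 5.63%, 1.11% and 2.94% were higher by at least 2-fold in these comparisons. The direction is by label, and the AtIPCS2 and AtIPCS3 transcripts run against the labels. TOD1, an alkaline ceramidase gene, passed only in At1++ against At1+ (1.21, limma adjusted p = 0.0172), on as few as 4 reads per library. TOD1 held 30.2, 13.1 and 14.6 normalized counts in At1++ and 7.78, 4.41 and 10.6 in At1+, so that replicate 1 of At1++ stood apart here too.

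Of 4 further genes of the glycolipid transfer protein fold shared with ACD11, none passed as higher and 4 as lower in At1++, 1 and 1 in At1+, none and 3 in both AtIPCS2 lines, and none and 1 in At3++ and At3+, with medians of -0.72, 0.08, -0.52 (At2++), -0.32 (At2+), -0.30 and -0.26. Over all genes 19% passed as lower in At1++, 13.2% in At1+, 26.2% and 21.5% for labels At2++ and At2+, and 18.1% and 4.37% for labels At3++ and At3+. GLTP2 held 49.2, 41.1 and 36.9 normalized counts in At1++ and 102, 116 and 113 in At1+, without overlap, a log2 fold change of -1.37 (standard error 0.17, limma adjusted p = 1.92e-07). Of 5 genes tied to sphingoid base phosphate signalling or to ACD11 binding (PLDALPHA1, GPA1, MPK6, CPK3 and BPA1), at most 2 passed as higher (label At2+, where 22.6% of all genes did) and 3 as lower (label At2++, 26.2%), and none changed by 2-fold. Medians of this list lay between -0.15 in At2++ and 0.08 in At1+.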

How the data were processed

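Single-end libraries of poly(A) RNA were made with a stranded TruSeq kit. Trimmomatic, STAR, HTSeq and DESeq2 were used by the authors for trimming, alignment to the Araport genome, counting and normalization. The deposited signal is thus a normalized count, a read count divided by the size factor of its library, for 25263 genes in 21 libraries. Whole reads were recovered for 100% of values (within 0.01 read). The fit used limma 3.58.1 (R 4.3.3) on log2(value + 1), with the prior variance following mean expression and 1 coefficient for each of the 7 groups. Genes with a mean under 1 were left out, so 22222 were tested. Levels per length, neighbours and promoters came from RefSeq (TAIR10.1), while the table holds no coordinates, and coding sequences were aligned with Biopython 1.88. The members and lists were chosen with earlier results of these data known. Genes beyond the members were named where they passed and changed by at least 2-fold in any comparison, or as the 3 genes most like a member whose group means span at least 1. Groups came from the sample titles. The fits were tested on simulated data. Alternatives were edgeR 4.0.16 and DESeq2 1.42.0 on the recovered reads, no filter, a pseudocount of 0.1, nuclear totals, only the libraries compared, a replicate block and each library left out. Protein sequences were not used here.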

Additional observations from a re-analysis of the deposited data

Results flagged for a closer look

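For several members the change from + to ++, by label, differed between isoforms by the test of the difference itself (limma contrast, adjusted p under 0.05 over all genes). Values are the log2 change of the first isoform minus that of the second. Between AtIPCS1 and AtIPCS2 they were -0.79 for SPHK2 (standard error 0.15, adjusted p = 0.000373), -0.78 for DPL1 (0.12, adjusted p = 2.67e-05), -0.55 for ACD11, -0.51 for SPP1, -0.38 for ACD5, -0.30 for SPHK1 and -0.27 for AT4G22330. Between AtIPCS1 and AtIPCS3 they were -0.80 for SPHK2 (adjusted p = 0.00051), -0.35 for LCBK1 and 0.47 for LCBK2. Between AtIPCS2 and AtIPCS3 they were 0.70 for LCBK2 (adjusted p = 0.000251), 0.58 for ACD11 and 0.46 for DPL1. The contrasts share lines with each other, and the labels of AtIPCS2 and AtIPCS3 run against their transcripts and may be exchanged, in which case the contrasts would be others. None of the values reached 1 on the log2 scale. The calls of SPHK1, ACD5 and AT4G22330 between AtIPCS1 and AtIPCS2, of LCBK1 between AtIPCS1 and AtIPCS3 and of DPL1 between AtIPCS2 and AtIPCS3 were each lost when single libraries were left out, while those of SPHK2, LCBK2 and ACD11 held without any 1 library.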

How the results depend on the processing

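Of the 90 member results in the 9 comparisons, 52 passed, and 8 of these were lost under at least 1 of 27 alternatives. In all, 20 of the 90 results changed under at least 1 alternative. The changed results that had not passed became calls, most of them with nuclear totals. Of the 31 that passed with a log2 fold change of at least 0.4, 1 was lost, SPHK2 in the libraries labelled At3++ against those labelled At3+. The number of members passing in At2+ against Col-0 was 10 with nuclear totals, against 6, and 6 to 7 with each library left out. In At3+ against Col-0 it was 2 with edgeR and 2 with DESeq2, against 1, and 1 to 2 with each library left out, the 2 coming without Col-0 replicate 2 or without At2+ replicate 1. LCBK2 in At2++ against Col-0 turned to -0.0065 with nuclear totals. No filter and a pseudocount of 0.1 changed no call. The replicate numbers did not pair the samples. Deviations of same-numbered samples correlated at -0.12 to 0.14 over 45 pairs, 1 of them over 0.1, and 13 of 90 correlated best with their own number. With the replicate number as a block, 6 members passed in At1+ and 7 in At1++ against Col-0, as without it, and 1 call was lost (SPHK1, change from + to ++, AtIPCS1 against AtIPCS2, -0.30, adjusted p = 0.0527). Groups of 2 or 3 libraries limit what could be detected, and where an At3+ library was left out the lone remaining one is assumed to vary like the other groups.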
